A study of Rattus norvegicus with 2 samples.

Results

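A set of 10 genes that respond to low oxygen was followed in rat urine RNA, and 9 of the 10 were found under their own gene entry. They were taken from the deposited table as entries with a number-only rat gene ID whose symbol is Hif1a, Egln1, Egln3, Vegfa, Adm, Slc2a1, Pdk1, Bnip3, Ddit4 or P4ha1. The table lists 113011 features in all, and 16329 of them are number-only gene entries with a symbol, called annotated genes below. Egln1 had no entry under its ID and was not analysed here. The urine came from Sprague Dawley rats, labelled as post natal day 56, that were sampled 14 days after surgery. In the UUO group (unilateral ureteral obstruction) the right ureter was tied, which leads to fibrosis of the kidney behind it. The group labelled WT had the same operation without the tie, so it is a sham group and not a genotype. In both groups a ureter catheter was used to collect the urine, and the number of rats behind each library is not stated. Each group had 1 library, so the values compare 2 libraries, without replicates, and no difference could be tested.

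Cells sense oxygen through prolyl hydroxylases, the Egln enzymes, which mark the alpha subunit of the hypoxia-inducible factor (HIF) while oxygen is present. The marked subunit is bound by the Vhl ubiquitin ligase and destroyed. When oxygen is short it persists, pairs with Arnt and binds hypoxia response elements near its target genes. These targets serve blood supply (Vegfa, Adm), glucose use (Slc2a1, Pdk1), removal of mitochondria (Bnip3), restraint of growth (Ddit4), collagen folding (P4ha1) and feedback on the sensor itself (Egln3). In the kidney the medulla works at low oxygen even in health, and HIF is controlled for the most part through the stability of its protein, which RNA does not show.

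The short core of the hypoxia response element is ACGTG or GCGTG, and it was looked for on both strands in RefSeq promoter windows (GRCr8 assembly). A window runs from 250 bases before to 50 bases after a gene's start, and all 10 genes had one. At least 1 core was found in the windows of 7 of the 10 genes, ACGTG in all 7 and GCGTG in 6. Over all 33469 windows of the same length, 41.6% held at least 1 of the cores, 19.3% ACGTG and 29.7% GCGTG. The windows of Adm and Egln3, and both windows of Vegfa, held neither core. That says only that these letters are missing from these windows. Below are the windows of Slc2a1 and Adm, which lay past the 2-fold limit in opposite directions, and of Bnip3, which lay within it. They are written in the direction of the gene, with each match in capitals. CACGT and CACGC are the cores as read on the other strand.

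Slc2a1, chr5:138002272-138002571, plus strand, 4 matches: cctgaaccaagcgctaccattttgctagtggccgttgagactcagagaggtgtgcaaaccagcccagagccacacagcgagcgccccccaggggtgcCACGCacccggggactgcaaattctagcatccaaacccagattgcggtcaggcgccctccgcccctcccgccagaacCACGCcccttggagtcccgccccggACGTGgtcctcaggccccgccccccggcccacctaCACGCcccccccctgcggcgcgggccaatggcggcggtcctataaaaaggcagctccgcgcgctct
Adm, chr1:174179950-174180249, plus strand, no match: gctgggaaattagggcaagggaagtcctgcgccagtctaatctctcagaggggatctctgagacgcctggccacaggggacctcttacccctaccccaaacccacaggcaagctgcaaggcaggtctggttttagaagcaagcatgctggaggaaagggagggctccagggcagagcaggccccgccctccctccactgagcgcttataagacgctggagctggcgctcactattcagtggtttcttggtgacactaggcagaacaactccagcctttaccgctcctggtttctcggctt
Bnip3, chr1:203154913-203155212, minus strand, 4 matches: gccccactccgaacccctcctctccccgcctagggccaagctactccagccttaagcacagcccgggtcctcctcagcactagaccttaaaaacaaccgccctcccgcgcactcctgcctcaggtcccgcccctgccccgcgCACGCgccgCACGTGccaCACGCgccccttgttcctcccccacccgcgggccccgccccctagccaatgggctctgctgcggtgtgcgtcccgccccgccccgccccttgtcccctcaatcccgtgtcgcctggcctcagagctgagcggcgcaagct

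In the Slc2a1 window the ACGTG core began 51 bases before the gene's start. In the Bnip3 window the cores on the 2 strands overlap in the single run CACGTG, which counts as 2 matches. The windows with a core belonged to genes with both higher and lower FPKM in UUO urine.

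The levels of the 9 genes are given in FPKM, a fragment count divided by transcript length and by the size of the library, so that genes stand on a scale per length. All 9 were detected in both libraries at FPKM 1 or more, and none was listed at 0. The 9 genes together summed to 169 FPKM in the WT library and 163 in the UUO library. Changes are given as the difference of log2(FPKM + 1), UUO minus WT, and a difference of at least 1 in size is called 2-fold. By this limit Vegfa and Slc2a1 were higher in UUO urine, Adm was lower, and the other 6 genes lay within 2-fold. The median log2 difference of the 9 genes was -0.30.

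These counts have to be read against the whole table. Of 7210 annotated genes with FPKM 1 or more in both libraries, 7% were 2-fold higher and 42.8% were 2-fold lower in UUO urine, and their median log2 difference was -0.81. Among the 9831 annotated genes with FPKM 1 or more in either library the shares were 25.6% and 36.6%, and the median was -0.51. The shares of the members were 22.2% higher and 11.1% lower. As deposited, 8 of the 9 members lay above the median of the genes detected in both libraries, Adm being the exception. Against the median of the wider set 5 of the 9 lay above, and Hif1a, Bnip3, Ddit4 and Adm lay below.

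**Figure D1:**
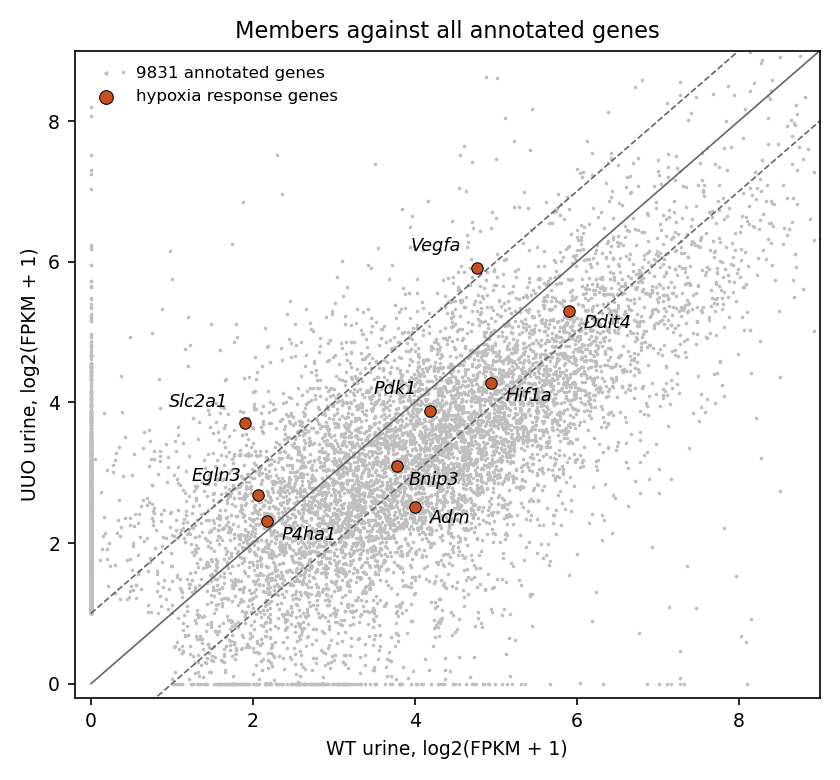
Level in UUO urine against level in WT urine, both as log2(FPKM + 1), for 9831 annotated genes (grey) and the 9 hypoxia response genes (orange), with 1 library per axis. The solid line marks equal levels and the dashed lines a log2 difference of 1. Vegfa and Slc2a1 lie above the upper dashed line and Adm below the lower one, while the mass of genes lies below the solid line. 75 genes lie beyond the plotted range.

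Hif1a, the oxygen-regulated alpha subunit (ID 29560, chromosome 6, 106242451 to 106290404), measured 29.6 FPKM in the WT library and 18.4 in the UUO library, a log2 difference of -0.66. It was the second highest member in WT and the third in UUO urine. Among the genes detected in both libraries it stood at percentile 67.3 in WT and 72.8 in UUO urine, so its rank differed little although its FPKM was 1.61-fold lower. Egln3, the hydroxylase that HIF itself induces (ID 54702, chromosome 6, 84592891 to 84618361), measured 3.18 FPKM in the WT library and 5.42 in the UUO library. Its log2 difference of 0.62 stood at percentile 88.3 of the genes detected in both libraries.

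Vegfa, the growth factor that draws and maintains blood vessels (ID 83785, chromosome 9, 16232414 to 16247658), measured 26.3 FPKM in the WT library and 59.4 in the UUO library. This is 2.26-fold higher, a log2 difference of 1.15, at percentile 94.5 of the genes detected in both. Vegfa was the third member in order of level in WT urine and the first in UUO urine. Adm, the vasodilator peptide adrenomedullin (ID 25026, chromosome 1, 182433090 to 182435280), measured 15.0 FPKM in the WT library and 4.73 in the UUO library. It was 3.17-fold lower, a log2 difference of -1.48, at percentile 25.8. The 2 vascular targets thus differed in opposite directions, and the ratio of Vegfa to Adm was 1.75 in WT and 12.6 in UUO urine.

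Slc2a1, the glucose transporter GLUT1 (ID 24778, chromosome 5, 141964113 to 141992637), was the lowest member of the WT library at 2.73 FPKM, and measured 12.0 in the UUO library. At 4.40-fold its log2 difference of 1.80 was the greatest of the 9, at percentile 98.0 of the genes detected in both. Pdk1, the kinase that holds pyruvate back from mitochondria (ID 116551, chromosome 3, 65019115 to 65048492), measured 17.2 FPKM in the WT library and 13.7 in the UUO library. Its log2 difference was -0.30, and it held place 4 of the 9 in both libraries.

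Bnip3, a receptor for the removal of mitochondria (ID 84480, chromosome 1, 218174695 to 218191883), measured 12.7 FPKM in the WT library and 7.57 in the UUO library. Ddit4, also called REDD1, an inhibitor of mTOR signalling (ID 140942, chromosome 20, 31315023 to 31317139), measured 58.8 FPKM in the WT library and 38.3 in the UUO library and was the highest member in WT urine. Their log2 differences, -0.67 and -0.61, were near that of Hif1a, and all 3 lay between percentiles 54.7 and 57.5 of the genes detected in both. P4ha1, a subunit of the collagen prolyl 4-hydroxylase (ID 64475, chromosome 20, 30726603 to 30776310), measured 3.52 FPKM in the WT library and 3.96 in the UUO library, a log2 difference of 0.13.

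**Figure D2:**
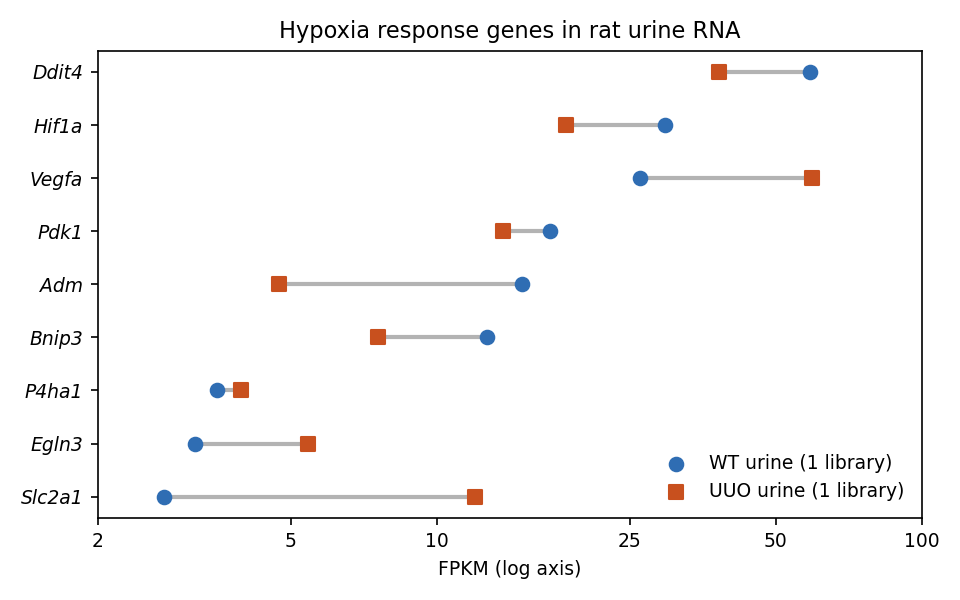
FPKM of each hypoxia response gene on a log axis in WT urine (blue circles) and UUO urine (orange squares), 1 library each, in order of the WT level. The longest grey bars belong to Slc2a1 (2.73 and 12.0) and Adm (15.0 and 4.73), which point in opposite directions. P4ha1 (3.52 and 3.96) has the shortest.

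Ratios between genes of the same library do not depend on how that library was scaled. Taken to Hif1a, Ddit4 was at 1.99 in WT and 2.08 in UUO urine, and Bnip3 at 0.428 and 0.411, so these 3 genes kept nearly the same proportions. Vegfa stood at 0.888 of Hif1a in WT and at 3.22 times Hif1a in UUO urine. Slc2a1 stood at 0.0923 and 0.652, a ratio 7.06 times higher in UUO urine. Egln3 stood at 0.107 and 0.294. Adm stood at 0.507 and 0.256. The widest shift between any 2 members was that of Slc2a1 to Adm, 0.182 in WT and 2.54 in UUO urine.

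The choice of scaling moved every log2 difference. With UUO values multiplied by 1.54, so that both libraries had the same FPKM sum, Vegfa, Slc2a1 and Egln3 were 2-fold higher and no member was 2-fold lower. By this scaling 15.0% of the genes detected in both libraries were 2-fold higher and 23.3% lower. With the median ratio of those genes, a factor of 1.86, the same 3 members were 2-fold higher, beside 20.0% of the genes higher and 16.6% lower. There the log2 difference was 2.64 for Slc2a1, 2.03 for Vegfa and 1.41 for Egln3, and Adm, at -0.71, was the only member below 0. Hif1a, Ddit4, Bnip3 and Pdk1 were below 0 as deposited and above 0 by the median ratio, so their direction depends on the scaling. A 75th percentile taken over every feature above 0 in either library divided UUO values by 9.53 and put all 9 members below 0. Its WT percentile was an FPKM of only 0.167, since 27525 of those 82006 features were above 0 in WT urine, and 96.1% of the genes detected in both were then 2-fold lower.

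**Figure D3:**
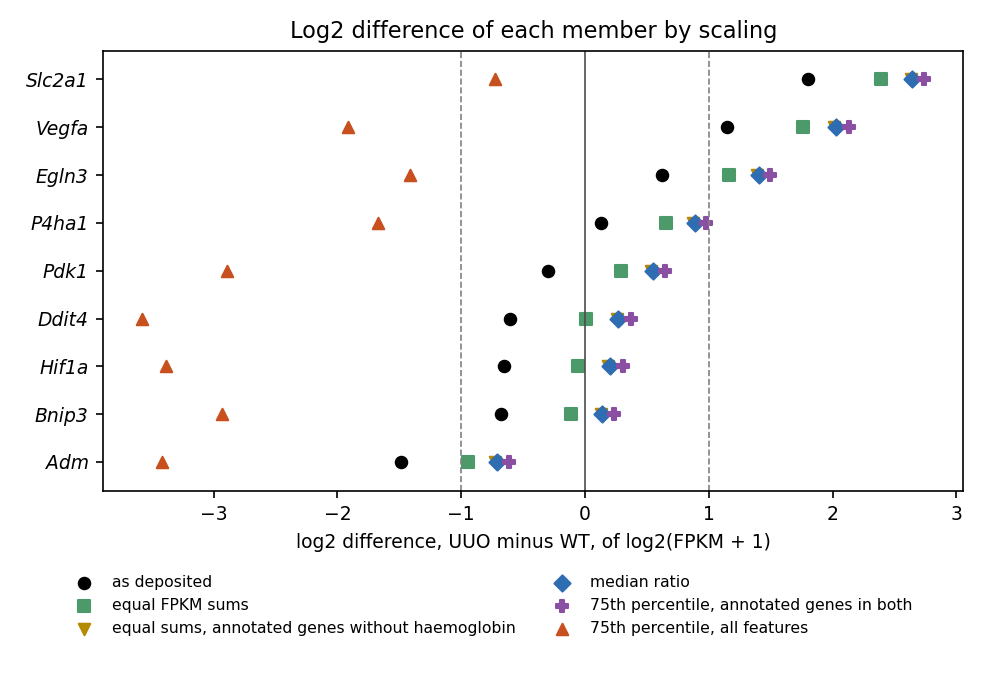
Log2 difference (UUO minus WT, of log2(FPKM + 1)) of each hypoxia response gene as deposited and under 5 rescalings of the UUO library, marked by colour and shape. Dashed lines mark a 2-fold limit of 1 in size. The other rescalings shift all genes to the right, where Adm stays below 0 and Vegfa and Slc2a1 above 1. The 75th percentile over all features puts every gene below 0.

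Depth limits the low members most. From the steps in FPKM of short assembled features, the libraries were scaled to a total of about 2115000 fragments for WT and 2446000 for UUO urine. The fit also took a length offset off each feature, 128 bases in WT and 176 in UUO urine. On 1000 bases left after this offset, 1 fragment was then worth 0.473 FPKM in the WT library and 0.409 in the UUO library. Bases are counted this way below. As the offsets differ, 1000 such bases are not the same transcript length in the 2 libraries. Slc2a1 thus had about 6 fragments per 1000 bases in WT urine (95% exact Poisson interval 2.20 to 13.1) and 29 in UUO urine (19.4 to 41.6). Adm had about 32 in WT (21.9 to 45.2) and 12 in UUO urine (6.20 to 21.0). Vegfa had about 56 (42.3 to 72.7) and 145 (122 to 171). Since the totals differ, the intervals were compared after conversion to FPKM. As deposited, those of the libraries did not overlap for these 3 genes and for Ddit4 (48.8 to 69.9 FPKM in WT and 31.1 to 47.0 in UUO urine), and they overlapped for the other 5. With equal sums or the median ratio they stayed apart for Vegfa and Slc2a1 only. Those of Adm, 10.3 to 21.4 FPKM in WT urine, then overlapped with 4.71 to 15.9 in UUO urine by the median ratio. The order of Hif1a and Vegfa in WT urine, and of P4ha1, Egln3 and Slc2a1 there, lay within counting error as well. These intervals hold for 1000 bases, are narrower for a longer transcript, cover counting error only and say nothing of the spread between rats. The share of all annotated genes whose intervals stay apart was not computed, so these counts do not set the members apart from other genes.

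Neighbouring entries shared the locus of 8 members, and how reads were divided among them was not examined. P4ha1 was alone at its locus. The gene entry held 100% of the summed FPKM of the locus in both libraries for Adm, and at least 77.3% in either library for the other members except Slc2a1. For Slc2a1 it held 52.4% in the WT library and 87.5% in the UUO library. Summed over the locus, its log2 difference was 1.25. For Vegfa the summed value was 1.03. Both stayed past the 2-fold limit. Some noncoding entries had near-identical values, such as NONRATG023408 (0.309 and 0.861) and NONRATT043511 (0.310 and 0.864) at the Slc2a1 locus. The sums may thus count the same reads more than once, which was not examined.

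RNA of other cell types also differed between the libraries, and urine RNA is a mixture in which fewer cells of a type and less RNA per cell cannot be told apart. Per the study's methods, urine was centrifuged before storage and again before RNA isolation. How much of the RNA came from whole cells is therefore not known. All 8 red-cell markers found were at least 2-fold higher in UUO urine, and they summed to 3208 FPKM in the WT library and 88944 in the UUO library. Of 9 leukocyte markers 6 were 2-fold higher, with sums of 9.61 and 140, and 7 of the 9, Ptprc, Cd68 and Itgam among them, were listed at 0 in WT urine. That 0 was shared by 8315 of the 16329 annotated genes. The 4 platelet markers found summed to 0 in WT and 207 in UUO urine, and 3 of them were 2-fold higher. The endothelial markers Cdh5, Emcn and Tek were at 0 in both libraries, and the list of 6 summed to 1.80 and 3.40. As deposited, 4 of the 10 tubule markers were 2-fold lower and none higher (sums 312 and 245), a share near the 36.6% lower of all annotated genes detected in either library. Of the 6 urothelial markers 2 were higher and 1 lower (sums 806 and 1112). As deposited, 25.6% of all annotated genes detected in either library were 2-fold higher. By the median ratio, 1 tubule marker was higher and 4 lower, and 4 urothelial markers were higher and 0 lower. The shares of all those genes were then 35.4% and 16.8%. The part of these cell types in the levels of Vegfa, Slc2a1 and Adm was not tested.

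The other parts of the oxygen sensor gave a mixed picture. Of 11 genes found besides Hif1a and Egln3, 10 had FPKM 1 or more in either library, 3 were 2-fold higher, 3 lower and 4 within the limit. Beside this, 25.6% of all annotated genes detected in either library were 2-fold higher and 36.6% lower. Epas1, the second alpha subunit (HIF-2 alpha), measured 41.4 FPKM in the WT library and 5.05 in the UUO library, a log2 difference of -2.81. Its level was above that of Hif1a in WT and below it in UUO urine. Arnt, the partner of both alpha subunits, was 18.7 and 3.76, and Hif1an, the asparagine hydroxylase that blocks HIF activity, was 43.6 and 10.6. Egln2 was 66.5 and 45.5 and Vhl 17.1 and 12.4, both within 2-fold. Arnt2, at 1.09 and 3.21, and the ubiquitin ligase subunits Elob, at 1.34 and 27.1, and Rbx1, listed at 0 in WT and at 24.7 in UUO urine, were higher. Hif3a stayed under FPKM of 1 in both libraries, at 0 and 0.487.

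The lists around the single targets held genes in both directions. Their counts include the member each list is built around, are as deposited, and stand beside 25.6% higher and 36.6% lower and a median of -0.51 over all annotated genes detected in either library. Vegfb measured 19.7 FPKM in the WT library and 6.31 in the UUO library, a log2 difference of -1.50, opposite to Vegfa. The VEGF receptors Flt1, Kdr and Flt4 were listed at 0 in WT urine, and measured 0.0897, 0.431 and 0 FPKM in UUO urine. Their co-receptors Nrp1 and Nrp2, also at 0 in WT, measured 2.44 and 1.76. Of the 10 genes of the VEGF list 4 reached FPKM 1 in either library, 3 of them 2-fold higher, Vegfa included, and 1 lower. Calcrl, the receptor of adrenomedullin, was listed at 0 in both libraries. Its accessory proteins Ramp2 (9.29 and 3.66) and Ramp3 (12.9 and 1.17) were lower like Adm, while Ramp1 was at 0 and 14.2. Of the 6 genes of this list 5 reached FPKM 1, with 2 higher and 3 lower, Adm included.

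As deposited, Slc2a1 was the only one of 11 glucose transporters that was 2-fold higher, and by the 75th percentile over all features none was. Of the 11, 5 reached FPKM 1 in either library, and 3 of them were lower, Slc2a5, which carries fructose, with 14.0 in WT and 1.61 in UUO urine, Slc2a8 with 6.02 and 2.24, and Slc2a2, the transporter of the proximal tubule, with 2.43 and 0.340. Of 11 genes of the pyruvate dehydrogenase step, 7 were lower and 1 higher, and the median log2 difference was -1.35. Pdk2 (58.6 and 16.9) and Pdk3 (13.3 and 2.52) were lower, and Pdk4 was listed at 0 in WT and at 4.99 in UUO urine. The enzyme subunits Pdhb (107 and 21.3) and Dld (72.6 and 18.5) were lower as well. By the median ratio 3 of the 11 were 2-fold lower and 2 higher, with 16.8% of all genes detected in either library lower and 35.4% higher.

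Of 7 collagen hydroxylases 5 reached FPKM 1 in either library, with 1 higher and 2 lower. P4ha2 (3.46 and 0.822) and P4hb, the shared beta subunit (165 and 66.1), were 2-fold lower, and Plod3 was at 0 in WT and 4.97 in UUO urine. Of the 13 mitophagy genes 5 were lower and 4 higher. Bnip3l, the close relative of Bnip3, was 70.8 and 61.5, within 2-fold. Gabarap (313 and 102) and Pink1 (323 and 116) were lower, while Fundc1, Gabarapl2 and Bcl2 were among the higher genes and were each listed at 0 in WT. Around Ddit4, 4 of the 10 genes of the mTOR list were lower and 1 higher, Tsc2 with 113 in WT and 8.54 in UUO urine and Sesn1 with 4.47 and 15.9 at the ends. By the median ratio none of the collagen hydroxylases and mitophagy genes and 1 gene of the mTOR list, Tsc2, was 2-fold lower. By that scaling 1 collagen hydroxylase, 4 mitophagy genes and 1 gene of the mTOR list were 2-fold higher. Beside this, 16.8% of all genes detected in either library were lower and 35.4% higher.

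**Figure D4:**
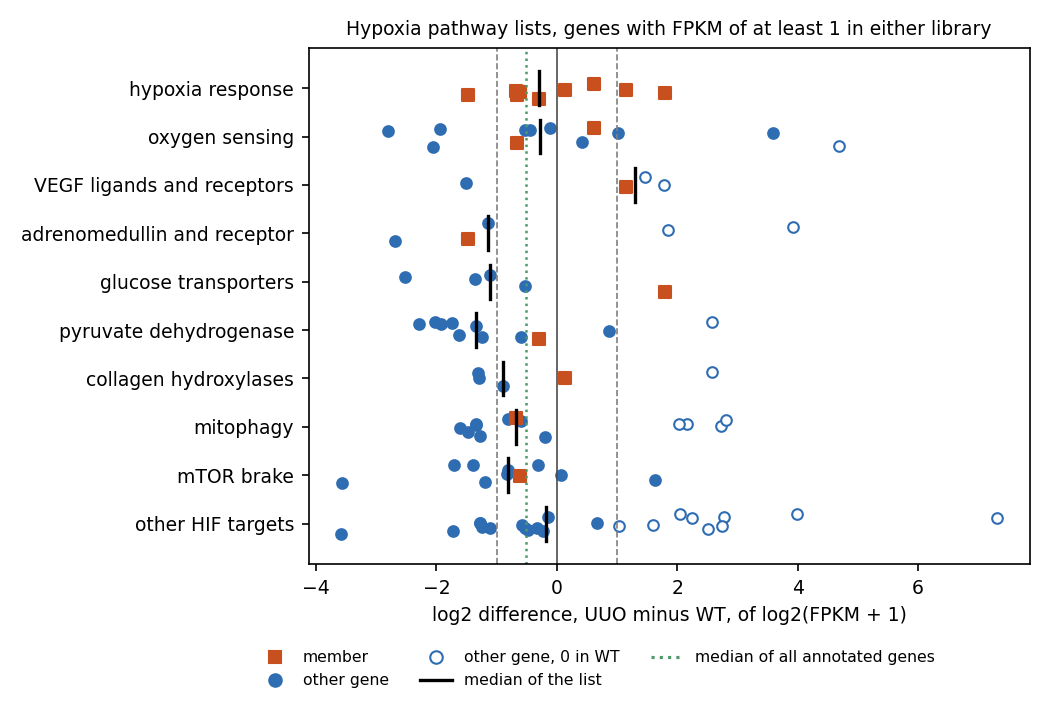
Log2 difference (UUO minus WT, of log2(FPKM + 1)) of each gene with FPKM 1 or more in either library, by list. Orange squares are hypoxia response genes, filled circles other genes, and open circles other genes listed at 0 in WT urine, with black bars for the median of a list. Most genes past the right dashed line, a log2 difference of 1, are open circles, and the green dotted line marks the median of all annotated genes with FPKM 1 or more in either library at -0.51.

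Beyond these, 26 further HIF targets were listed, and 22 reached FPKM 1 in either library. Of these, 9 (40.9%) were 2-fold higher, 6 (27.3%) lower and 7 within the limit. The shares over all annotated genes detected in either library were 25.6% and 36.6%. By the median ratio 10 were higher and 2 lower, beside 35.4% and 16.8% of those genes. Among the 13 targets detected in both libraries 0 were higher and 6 lower as deposited, beside 7% and 42.8% of all such genes. Every one of the 9 higher as deposited was listed at 0 in WT urine. The greatest were Hmox1, which breaks down haem, at 158 in UUO urine, Bhlhe40, a repressor of transcription, at 14.9, and Edn1, the precursor of the vasoconstrictor endothelin, at 5.85. Hk2, a hexokinase, was the lowest in log2 difference at -3.58, with 116 in WT and 8.78 in UUO urine. The glycolytic enzymes Ldha (46.8 and 42.4) and Pgk1 (47.8 and 33.9), genes with near-identical copies that can share reads, were within 2-fold, and so were Ndrg1 (162 and 109) and Mxi1 (51.2 and 35.2). Epo, Car9 and Lox were listed at 0 in both libraries.

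Over all 98 partners and other targets found, the members left out, 78 had FPKM 1 or more in either library, and 23 were higher and 33 lower. These are 29.5% and 42.3% of the 78, near the 25.6% and 36.6% of all annotated genes detected in either library. Of the 23 higher genes 20 were listed at 0 in WT urine. Over all annotated genes 75% of the 2-fold higher genes were so listed, so that zeros in the WT library were common among higher genes of any kind. Among the 55 partners detected in both libraries only 3 were higher and 31 lower, beside 7% and 42.8% of all genes. Vegfa and Slc2a1 differed from most of the higher genes around them in being measured in both libraries.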

How the data were processed

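RNA was sequenced from rat urine in 1 library per group. Per the study's methods, ribosomal RNA was removed and libraries were strand-specific, as described for kidney RNA. Whether counting used strand is not given in the sources used here. The submitters' processing notes name Bowtie2 2.0.6, TopHat2 2.0.9, Cufflinks 2.1.1, Cuffdiff 2.1.1 and the build rn5. Gene positions are those of the deposited table, and promoter windows are on GRCr8. The authors deposited 1 FPKM value per feature and library. Their own fold changes, test statistics, p-values and q-values in the same table were not used. UrRf and Urc, the condition names of the file, were read as UUO and WT from the words renal fibrosis in the series title and from the study's urine lists, where these values stand under the headings UUO and sham. If that reading were wrong, every direction would turn.

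Symbols came from an NCBI RefSeq table of GRCr8, which matched 16329 of 16484 number-only IDs (99.1%). Differences were computed on the log2(FPKM + 1) scale, so that changes of low genes are understated. No test can be made with a single library in each group, and none was run. The normalising total and the length offset were fitted on assembled features with a locus of their own of 400 to 1200 bases. They were set so that the FPKM values became whole numbers of fragments. Any multiple of a total also gives whole numbers, and the smallest that fitted nearly as well was taken. In WT urine 93.5% of 186 values and in UUO urine 99.5% of 3530 came within 0.1 of a whole number. The fit and the scaling were tested on simulated data. The members, gene lists and limits were chosen with earlier results of these data known. Genes named besides the members share a family or complex with one or have the greatest differences of a list (at most 4), and a few others were chosen after their values were seen. Alternatives were another pseudocount, 5 rescalings, other limits and sums over loci. Python 3.11.15 with pandas 2.3.3, numpy 2.4.6 and scipy 1.17.1 was used.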

Additional observations from a re-analysis of the deposited data

How the results depend on the processing

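No paired analysis was possible because there is only 1 library for WT and 1 for UUO, and none could be left out. A log2 difference is taken as unchanged if neither its sign nor its side of 1 differs, and a count if it is within 1.5 times. Of 216 recomputed values of 26 results, 113 were unchanged by these limits. The number of members 2-fold higher, 2 as deposited, was 0 with a 4-fold limit and 0 by the 75th percentile over all features. Slc2a1, whose FPKM ratio is 4.40, missed the 4-fold limit of 2 only through the pseudocount of 1, and was past it with a pseudocount of 0.1. The number lower, 1 as deposited, was 0 with a 4-fold limit and 0 under every other rescaling, and 8 by that percentile. The median of the members, -0.30 as deposited, was 0.29 with equal sums, 0.55 with the median ratio and -2.90 with the 75th percentile over all features. It was 0.64 by the 75th percentile of annotated genes detected in both libraries and 0.53 with equal sums of annotated genes without haemoglobin, both chosen after seeing the data. Slc2a1 reversed to -0.72 and Vegfa to -1.92 by the 75th percentile over all features. Each rescaling multiplies all UUO values by 1 factor, which moves every difference the same way.

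Of all annotated genes detected in either library, 36.6% were lower as deposited, 21.9% with equal sums and 16.8% with the median ratio. The share lower was 76.3% by the 75th percentile over all features, and 15.2% and 17.1% under the rescalings added later. Higher were 25.6% as deposited and 2.23% by that percentile, and 7% of genes detected in both as deposited. The share with FPKM of at least 5 was not computed. Of the partners and other targets, 33 were lower as deposited, 15 with equal sums and 12 with the median ratio. By the 75th percentile over all features 55 were lower, and 11 and 12 under the rescalings added later. Higher were 23 as deposited, 4 by the 75th percentile over all features, 10 with FPKM of at least 5 and 3 with FPKM of at least 1 in both libraries, a limit chosen after seeing the data. Their median, -0.58 as deposited, was 0.020, 0.28, -2.97, 0.38 and 0.27 under these rescalings in the order equal sums, median ratio, both 75th percentiles and sums without haemoglobin, -1.13 with FPKM of at least 5 and -1.19 with FPKM of at least 1 in both. The median of the VEGF list reversed to -0.84 by the 75th percentile over all features and to -0.18 under either limit on FPKM, that of the adrenomedullin list to 0.20 when FPKM was summed over loci, and that of the glucose transporters to 0.38 with no limit on FPKM. The cause of the shift over loci was not tested. Read counts were not used here, and a gene at 0 in WT urine is compared with few fragments.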

Other observations

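Noncoding entries at the locus of Vegfa, chosen after their values were seen, differed between the libraries in a way the gene entry does not show. Of the 14 other features there, NONRATT056221 was listed at 0 in WT and had an FPKM of 6.79 in UUO urine, while NONRATT056225 had 5.10 in WT and 0.00111 in UUO urine. NONRATT056230 had 2.64 and 2.06. At the locus of Slc2a1, NONRATT043512 had an FPKM of 1.86 in WT urine and was listed at 0 in UUO urine, opposite to the gene itself. How Cuffdiff divided reads among the features of a locus was not examined.

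Among the partners, the subunits of the Vhl ubiquitin ligase differed from each other. Elob and Rbx1 were higher in UUO urine, with log2 differences of 3.59 and 4.68, while Cul2 (3.77 FPKM in WT and 3.42 in UUO urine) and Eloc (4.30 and 6.06) were within 2-fold. The WT value of Rbx1 is a listed 0, which 8315 annotated genes share in that library and which need not be a low level. That of Elob, 1.34 FPKM, is close to the limit of 1.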
